A study of Mus musculus with 8 samples.

Results

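The motile cilium axoneme and dynein genes were measured in whole lungs of Ggps1 knockout and wild-type mice after lipopolysaccharide (LPS). They were taken from the array's gene names by a fixed list and by 2 name patterns, one for axonemal dynein heavy chains (Dnah or Dnahc and a number) and one for radial spoke heads (Rsph and a number). This gave 47 genes, and 3 listed genes were found on the array under older names through their RefSeq accessions (Drc1 as Gm1060, Dnal1 as Dnalc1, Cfap126 as 1700009P17Rik), so that there were 50 members among 36153 gene names. The listed name Ccdc164 is a synonym of Drc1. Of the 50, 48 were well above background on at least 3 of the 4 arrays of a group and were tested, among 24464 genes tested in all. Dnahc1, an inner arm heavy chain, was above background on 1 knockout and 2 wild-type arrays and Rsph6a, a radial spoke head gene, on 0 of 8 arrays, and neither was tested.

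The knockout group was 4 C57BL/6 mice with a lung-specific knockout of Ggps1, treated with LPS and taken at 12 h, and the other group was 4 wild-type C57BL/6 mice treated with LPS for the same time. Ggps1 encodes the synthase of geranylgeranyl diphosphate, the lipid attached to many small GTPases, and LPS is the bacterial outer-membrane component used here to injure the lung. The sources used here do not name the promoter or Cre line behind the deletion or the age of the mice, and mice without LPS were not analysed here. Each lung was read on its own single-colour Agilent array, and values are given as log2 signal over that array's 75th percentile.

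Motile cilia are built on an axoneme, a ring of doublet microtubules around a central pair. Outer and inner dynein arms are the motors that slide the doublets, while radial spokes, the central pair and the nexin-dynein regulatory complex shape the beat. In the lung such cilia stand on the multiciliated cells of the airways and move mucus, and the genes of the axoneme are switched on together in these cells by Foxj1 and RFX transcription factors.

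All 8 arrays lay on 1 slide, with the knockout samples in row 2 and the wild-type samples in row 1, so slide row and genotype cannot be told apart. Spots well above background made up 58.1% to 61.6% of a knockout array and 61.5% to 65.3% of a wild-type array, and 20.2% to 23.9% of the values on knockout arrays, against 14.8% to 19.6% on wild-type arrays, were surrogates set by the scanner software near background. Ggps1 had 3 kept probes, of which the brightest was used and the others are not reported here. The one used read 1.32, 1.24, 1.22 and 1.24 in knockout lungs 1 to 4, against 1.26, 1.34, 1.26 and 1.40 in wild-type lungs 1 to 4. Its difference was -0.06 ± 0.068 (SE; limma, adjusted p = 0.608). The sources used here do not say which part of the gene was deleted, and other cells of the lung may keep it, so this probe does not check the labels. Ciliated cell markers outside the members were well above background on 3 or more arrays of a group for 8 of 8 genes, and alveolar type 1 and type 2 markers for 12 of 12 genes each. Of 12 sperm markers, 7 were not tested for want of signal, and the protamine Prm1 and transition protein Tnp1, which define late spermatids, were dim and did not differ past the threshold (-0.68 ± 0.40 and -0.45 ± 0.29, SE; limma, adjusted p = 0.337 and 0.377).

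Most members had a higher mean in the knockout lungs, although no single member passed the test. The mean was higher in knockout for 44 of the 48 members tested, against 45.6% of all genes tested, and the 4 members with a lower mean in knockout were Dnahc8, Dnahc17, Spef2 and Sec14l3. The median log2 difference of the members was 0.52, or 1.43-fold, while the median of all genes tested was -0.03. Members that rose at an adjusted p under 0.05 numbered 0, as did members that fell (limma, Benjamini-Hochberg over all genes tested), where 0.0327% of all genes tested rose and 0.0286% fell. At an unadjusted p under 0.05, 24 members were higher and 0 were lower in knockout, against 10.1% and 13.4% of all genes tested. For 17 members the 4 knockout values all lay above the 4 wild-type values, and for 0 members all lay below, against 6.08% and 9.25% of all genes tested. In whole lung, a different number of ciliated cells and a different amount of RNA per ciliated cell cannot be told apart.

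The lungs of a group differed among themselves as well. Relative to each gene's mean over the 8 arrays, the members deviated on average by 0.09, 0.26, -0.03 and 0.62 in knockout lungs 1 to 4, against 0.05, -0.36, -0.19 and -0.43 in wild-type lungs 1 to 4. Knockout lung 4 stood highest of all lungs, and wild-type lung 1 lay above knockout lung 3, so the averages of single lungs overlapped between the groups. Knockout lung 4 held the highest value of 38 members and wild-type lung 4 the lowest value of 27, followed by wild-type lung 2 with the lowest value of 12. Without knockout lung 4 the median difference was 0.34, against -0.02 for all genes tested. There 39 members were higher in mean in knockout, and 22 were higher at an unadjusted p under 0.05. The shares of all genes were not counted without that lung. Without knockout lung 3 the median was 0.64, and without wild-type lung 1 it was 0.60. The members moved together from lung to lung: across the 8 lungs, the correlation of a member with the mean of the other members had a median of 0.93, and of 0.88 after the group means were taken out. These correlations are a description, since all members of a lung share its array, and 2 members ran against the rest by both measures, Dnahc8 (-0.66) and Sec14l3 (-0.43).

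**Figure D1:**
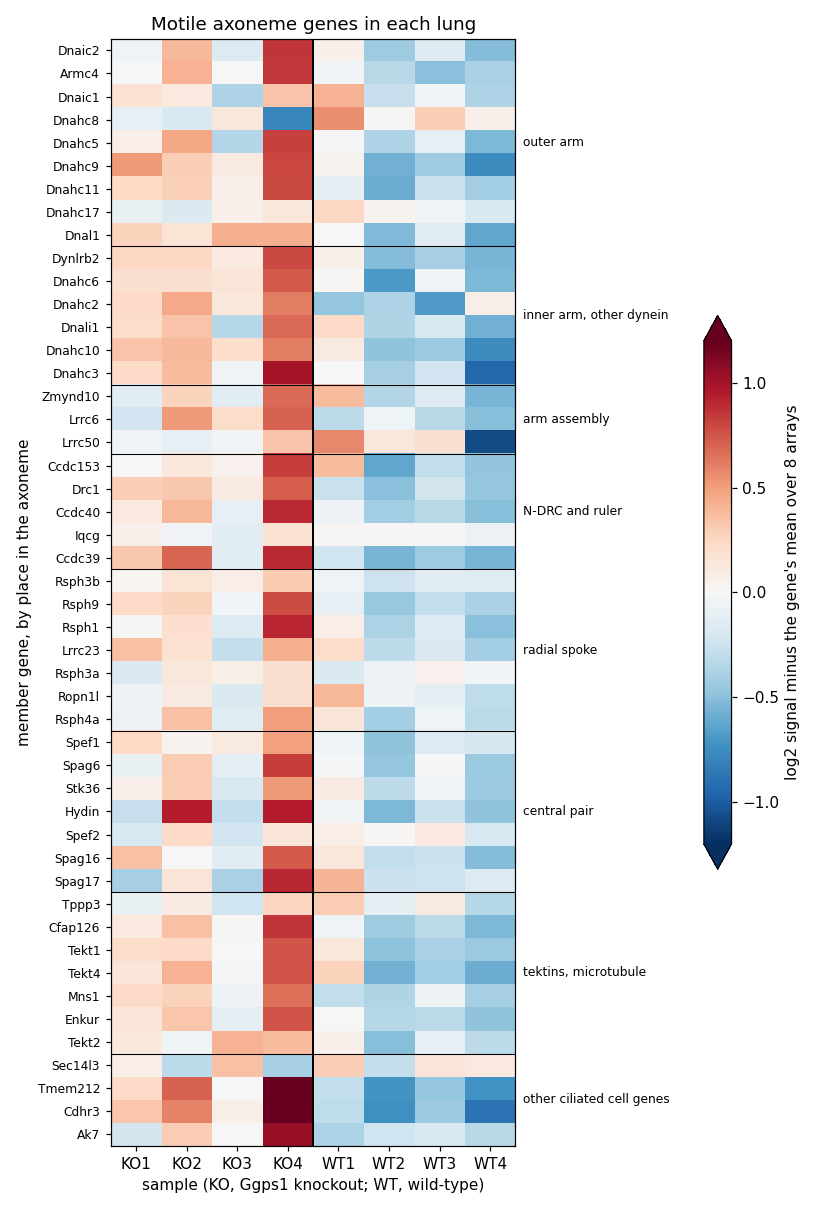
Log2 signal of each of the 48 members tested, as its deviation from the gene's mean over 8 arrays (colour, red above and blue below the mean), in knockout lungs 1 to 4 on the left and wild-type lungs 1 to 4 on the right, grouped by place in the axoneme. Knockout lung 4 holds the highest value of 38 members and wild-type lung 4 the lowest value of 27, and colours end at 1.2 in either direction.

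Markers of cardiac muscle were measured in the same lungs. The 14 cardiac muscle markers had a higher mean in knockout in all 14 cases (median log2 difference 1.70), with 0 at an unadjusted p under 0.05. Their summed signal, in multiples of the array's 75th percentile, ranged from 108 to 644 in knockout lungs and from 34.4 to 493 in wild-type lungs. The groups thus overlapped. Myh6, a cardiac myosin heavy chain, differed by 2.0 ± 1.07, Myl4 by 1.88 ± 1.05 and Tnni3 by 1.58 ± 0.89 (SE). Each was well above background on all 8 arrays. The mean level of the 14 cardiac markers was 2.32, 4.24, 1.22 and 4.20 in knockout lungs 1 to 4, against -0.59, 4.02, 0.94 and 1.09 in wild-type lungs 1 to 4. Knockout lungs 2 and 4 and wild-type lung 2 were the highest in these markers, and the last of these was among the lowest lungs in the axoneme genes. When those 3 lungs were left out, a choice made after seeing the data, the members' median difference was 0.24, against -0.02 for all genes tested. Of the 48, 36 were higher in mean in knockout, 8 of them at an unadjusted p under 0.05, and 0 were lower at that p. The shares of all genes were not counted without those lungs, so these counts have no background beside them. The difference changed sign for 10 of the 48, of which 9, Hydin among them, were higher in knockout over all 8 lungs. By sub-group the medians were then 0.11 for the outer arm, 0.48 for the inner arm and other dynein chains, and 0.06 for arm assembly. They were 0.31 for the regulatory complex and ruler, 0.11 for the radial spokes and 0.055 for the central pair. The tektins and their neighbours had a median of 0.34 and the other ciliated cell genes one of 0.40. That comparison rests on 2 knockout and 3 wild-type lungs. The source of the cardiac muscle signal and its part in the result were not tested further.

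Some promoters of the members held a sequence feature that the rule did not use. RFX factors bind the X-box, and RefSeq promoter windows of 300 bases (250 before to 50 after the start, build GRCm38.p6) were found for 43 of the 50 members, with 48 windows in all. The RFX X-box consensus, searched on both strands with a spacer of 0 to 3 bases, was held by 10 of the 48 windows (20.8%), against 1.53% of all 32851 windows in the table. The looser pattern GTNNCC, 0 to 3 further bases and NGNAAC, which contains the consensus, was held by 43.8% of member windows, against 5.25% of all windows. The forkhead core TGTTTAC was held by 4.17% of member windows, against 3.65% of all windows, and the CCAAT box by 35.4%, against 37.4%. The 9 members with the consensus were Dnaic1, Dnaic2, Dynlrb2, Hydin, Lrrc23, Rsph3b, Spag16, Spef2 and Tekt2, and their log2 differences between knockout and wild-type lungs ran from -0.02 to 0.70 with a median of 0.43. The 32 tested members with a window but without the consensus ran from -0.47 to 1.18 with a median of 0.57. A match is a description of the sequence and not a measured binding site.

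Windows of 6 members are printed because they carry the consensus in members from different parts of the axoneme and with differences from near 0 to 0.70, the consensus in capitals. They lie at chr4:41569544-41569843, plus strand (Dnaic1), chr11:114727169-114727468, plus strand (Dnaic2), chr8:116504765-116505064, plus strand (Dynlrb2), chr8:110266727-110267026, plus strand (Hydin), chr15:9748819-9749118, minus strand (Spef2) and chr4:126325597-126325896, minus strand (Tekt2), and each is written in the direction of its gene. The consensus begins 19 bases before the start in Dnaic1, 33 before it in Dnaic2, 51 before it in Dynlrb2, 21 before it in Hydin, 71 before it in Tekt2 and 8 after it in Spef2. RefSeq gives Tekt2 another start, which the same match precedes by 29 bases.
Dnaic1: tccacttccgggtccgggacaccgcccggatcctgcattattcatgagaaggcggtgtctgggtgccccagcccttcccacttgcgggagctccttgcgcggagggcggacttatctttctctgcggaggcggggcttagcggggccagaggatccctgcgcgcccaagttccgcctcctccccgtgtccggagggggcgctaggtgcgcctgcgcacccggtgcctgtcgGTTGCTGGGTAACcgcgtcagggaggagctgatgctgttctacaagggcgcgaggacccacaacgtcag
Dnaic2: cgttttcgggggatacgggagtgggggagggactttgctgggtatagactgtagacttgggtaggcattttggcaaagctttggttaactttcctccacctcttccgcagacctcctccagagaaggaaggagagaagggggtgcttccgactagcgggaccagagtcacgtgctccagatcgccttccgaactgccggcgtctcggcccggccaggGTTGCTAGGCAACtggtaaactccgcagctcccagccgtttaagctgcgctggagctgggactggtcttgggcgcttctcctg
Dynlrb2: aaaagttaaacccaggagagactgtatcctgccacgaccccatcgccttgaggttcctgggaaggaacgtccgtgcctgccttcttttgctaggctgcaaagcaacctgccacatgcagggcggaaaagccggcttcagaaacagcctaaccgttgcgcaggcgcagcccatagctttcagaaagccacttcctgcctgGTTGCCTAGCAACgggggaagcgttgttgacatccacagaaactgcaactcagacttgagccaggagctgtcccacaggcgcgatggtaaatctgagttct
Hydin: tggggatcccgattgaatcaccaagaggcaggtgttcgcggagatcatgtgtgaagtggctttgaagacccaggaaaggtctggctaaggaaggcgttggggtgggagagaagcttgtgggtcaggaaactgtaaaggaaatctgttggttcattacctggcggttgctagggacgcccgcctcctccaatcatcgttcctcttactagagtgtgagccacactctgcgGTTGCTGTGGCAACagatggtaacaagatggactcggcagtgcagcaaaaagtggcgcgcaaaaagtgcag
Spef2: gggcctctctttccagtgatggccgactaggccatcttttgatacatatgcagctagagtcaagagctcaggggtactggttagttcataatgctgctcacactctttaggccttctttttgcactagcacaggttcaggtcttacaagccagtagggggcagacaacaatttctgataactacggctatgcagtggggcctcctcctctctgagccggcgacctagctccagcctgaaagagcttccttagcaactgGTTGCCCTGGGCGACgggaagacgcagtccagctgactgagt
Tekt2: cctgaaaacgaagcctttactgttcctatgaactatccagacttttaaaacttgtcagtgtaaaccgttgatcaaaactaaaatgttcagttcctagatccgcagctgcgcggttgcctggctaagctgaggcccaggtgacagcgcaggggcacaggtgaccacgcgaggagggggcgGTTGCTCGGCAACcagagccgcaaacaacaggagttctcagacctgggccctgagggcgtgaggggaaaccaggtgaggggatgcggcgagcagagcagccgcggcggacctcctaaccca

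The outer dynein arm, which gives most of the power of the stroke, had a higher mean in knockout for 7 of 9 members (median log2 difference 0.52), 4 of them at an unadjusted p under 0.05. The median was 0.32 without knockout lung 4. The counts of this and each later group are to be read beside the shares of all genes tested. Of all genes, 45.6% had a higher mean in knockout, and 10.1% were higher and 13.4% lower at an unadjusted p under 0.05. Dnahc9 is the array's name for Dnah9, a heavy chain of the outer arm along the outer part of the cilium, and its probe (mm9 chromosome 11, 65934611 to 65934670) read -0.34, -0.55, -0.74 and -0.04 in knockout lungs 1 to 4, against -0.81, -1.42, -1.28 and -1.61 in wild-type lungs 1 to 4. Each knockout value was above each wild-type value, the nearest pair being knockout lung 3 and wild-type lung 1, and the difference was 0.86 ± 0.20 (SE, n = 4 per group; limma, adjusted p = 0.0778). A second Dnahc9 probe was not above background on any array. Dnahc11, another heavy chain, read -0.61, -0.57, -0.79 and -0.05 in knockout lungs 1 to 4, against -0.96, -1.45, -1.10 and -1.26 in wild-type lungs 1 to 4. Its groups were also apart, with a difference of 0.69 ± 0.17 (SE; limma, adjusted p = 0.082). Dnal1, a light chain of the arm, was dim but above background on all 8 arrays and read -4.06, -4.17, -3.90 and -3.90 in knockout lungs 1 to 4, against -4.34, -4.86, -4.48 and -4.96 in wild-type lungs 1 to 4. The groups were apart (0.65 ± 0.15, SE; limma, adjusted p = 0.0763). The knockout arrays held more surrogate values near background, and their part in this difference was not tested.

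Among the intermediate chains and the docking factor the groups were closer. Dnaic2, an intermediate chain whose promoter is printed above, read 0.03, 0.46, -0.09 and 0.92 in knockout lungs 1 to 4, against 0.13, -0.36, -0.09 and -0.45 in wild-type lungs 1 to 4. Knockout lung 4 was highest and knockout lung 3 lay among the wild-type values, and the difference was 0.52 ± 0.24 (SE; limma, adjusted p = 0.229). Dnaic1, its partner chain, read -0.32, -0.38, -0.86 and -0.15 in knockout lungs 1 to 4, against -0.07, -0.77, -0.52 and -0.87 in wild-type lungs 1 to 4. The groups overlapped fully, with wild-type lung 1 the highest of all, and the difference was 0.13 ± 0.21 (SE; limma, adjusted p = 0.733). Armc4, which takes part in docking the arm to the doublet, read -0.45, -0.03, -0.45 and 0.40 in knockout lungs 1 to 4, against -0.48, -0.78, -0.95 and -0.84 in wild-type lungs 1 to 4. Its groups were apart by a narrow margin between knockout lungs 1 and 3 and wild-type lung 1 (0.63 ± 0.21, SE; limma, adjusted p = 0.127). Dnahc5, the heavy chain found along the whole cilium in human airways, differed by 0.51 ± 0.25 (SE) with overlapping groups.

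Dnahc8 and Dnahc17, heavy chains known chiefly from sperm flagella, did not share this pattern. Dnahc8 read -0.71, -0.79, -0.47 and -1.39 in knockout lungs 1 to 4, against -0.05, -0.59, -0.31 and -0.54 in wild-type lungs 1 to 4, and it was chosen for full description after its values were seen. Knockout lung 4, the highest lung for most members, was the lowest here, and the difference was -0.47 ± 0.21 (SE; limma, adjusted p = 0.223). Dnahc17 differed by -0.04 ± 0.12 (SE), with the 2 groups over the same range. Both have 2 further probes each that were not kept for want of signal.

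The inner dynein arms, which shape the waveform, were grouped with other dynein chains. The mean was higher in knockout for 6 of 6 members tested (median 0.71), 5 of them at an unadjusted p under 0.05. Dnahc10, a heavy chain of the 2-headed inner arm, was measured by a probe at mm9 chromosome 5, 125314587 to 125314646. It read 0.57, 0.61, 0.44 and 0.83 in knockout lungs 1 to 4, against 0.33, -0.26, -0.22 and -0.53 in wild-type lungs 1 to 4. The 4 knockout values lay within a narrow range above all wild-type values, and the difference of 0.78 ± 0.18 had the second smallest p of the members (SE, n = 4 per group; limma, adjusted p = 0.0756). Dnahc2, the other heavy chain of that arm, read 1.48, 1.71, 1.39 and 1.87 in knockout lungs 1 to 4, against 0.79, 0.88, 0.57 and 1.32 in wild-type lungs 1 to 4. Its groups were apart too, but with wild-type lung 4 as the highest of its group, and the difference was 0.72 ± 0.18 (SE; limma, adjusted p = 0.0789). Within groups Dnahc2 hardly followed the other members (r = 0.10 over 8 lungs, a description), against 0.85 for Dnahc10.

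Dynlrb2, a light chain of the roadblock family with an X-box in its printed promoter, read 3.66, 3.65, 3.52 and 4.20 in knockout lungs 1 to 4, against 3.47, 2.88, 3.01 and 2.85 in wild-type lungs 1 to 4. The groups were apart with a difference of 0.70 ± 0.19 (SE; limma, adjusted p = 0.0931). Dnahc6, a single-headed inner arm chain, read 1.67, 1.67, 1.63 and 2.22 in knockout lungs 1 to 4, against 1.50, 0.79, 1.43 and 0.94 in wild-type lungs 1 to 4. Knockout lungs 1, 2 and 3 were nearly equal and knockout lung 4 stood far above them, and all 4 exceeded the wild-type lungs (0.63 ± 0.20, SE; limma, adjusted p = 0.124). Dnali1, the light intermediate chain, differed by 0.45 ± 0.24 and Dnahc3, a single-headed heavy chain, by 0.78 ± 0.27 (SE), both with overlapping groups. Outside the name pattern, the mouse copies Dnahc7a and Dnahc7b differed by 0.48 ± 0.25 and 0.81 ± 0.20 (SE).

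The 3 dynein arm assembly factors, which fold and join the arms in the cytoplasm before they enter the cilium, all had a higher mean in knockout, with a median of 0.34 and 1 at an unadjusted p under 0.05. The median was 0.18 without knockout lung 4, 0.21 without wild-type lung 4 and 0.53 without wild-type lung 1. Lrrc6 read -2.90, -2.16, -2.45 and -1.96 in knockout lungs 1 to 4, against -2.99, -2.73, -3.0 and -3.18 in wild-type lungs 1 to 4. Knockout lung 1 lay among the wild-type values and the other 3 knockout lungs above them (0.61 ± 0.20, SE; limma, adjusted p = 0.135). Zmynd10, its partner, read -0.45, -0.05, -0.45 and 0.35 in knockout lungs 1 to 4, against 0.06, -0.67, -0.48 and -0.88 in wild-type lungs 1 to 4. Wild-type lung 1 was second only to knockout lung 4, the groups overlapped, and the difference was 0.34 ± 0.25 (SE; limma, adjusted p = 0.421). Lrrc50, now named Dnaaf1, was above background on 3 arrays of each group and read -4.58, -4.64, -4.58 and -4.19 in knockout lungs 1 to 4, against -3.96, -4.40, -4.34 and -5.61 in wild-type lungs 1 to 4. Its difference of 0.08 ± 0.33 (SE) rested on wild-type lung 4, far below the rest, and was -0.26 without that lung.

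**Figure D2:**
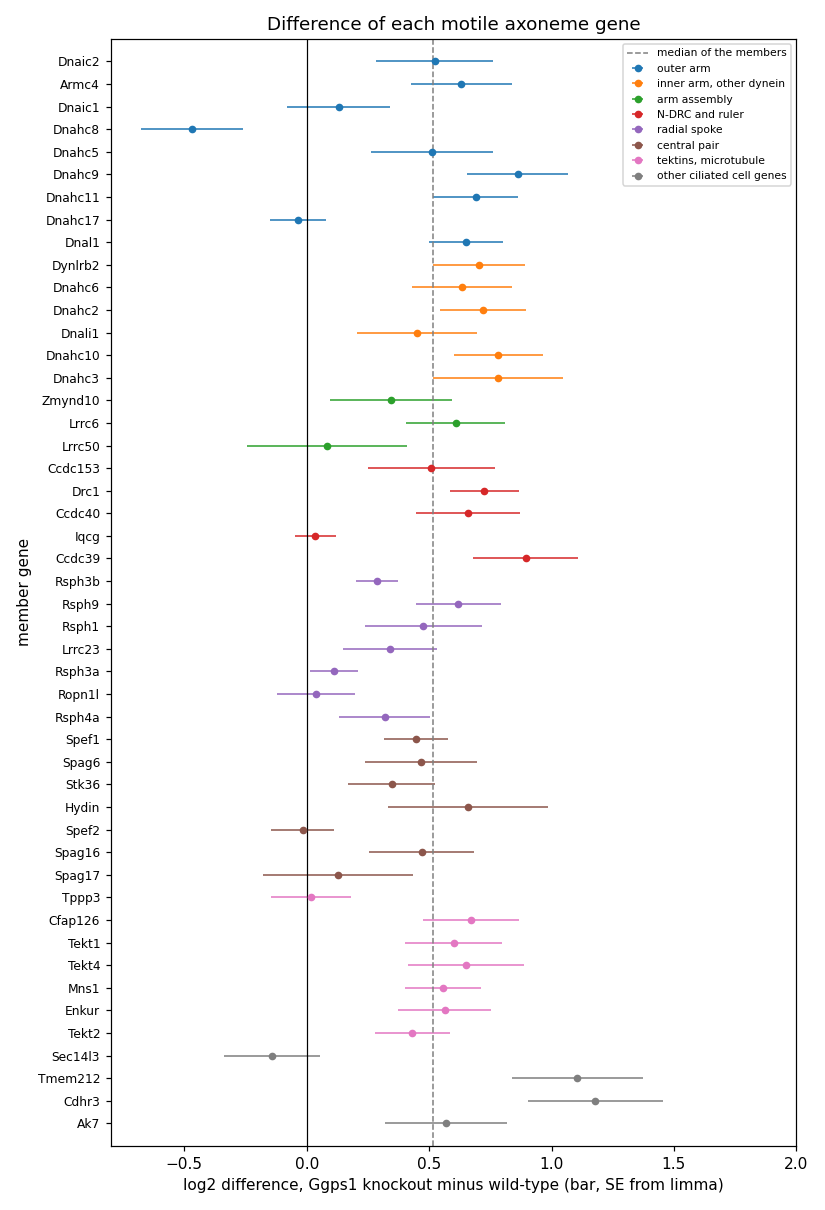
Log2 difference, knockout minus wild-type, of each of the 48 members tested (points, with the SE from limma as bars), coloured by place in the axoneme, with the members' median of 0.52 as a dashed line. Of the 48 points 44 lie above 0, and none has an adjusted p under 0.05.

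The nexin-dynein regulatory complex and the Ccdc39 and Ccdc40 ruler, which space the arms and spokes along the doublet, had a higher mean in knockout for 5 of 5 members (median 0.66), 3 of them at an unadjusted p under 0.05. Drc1, a scaffold of the complex, had the smallest p of all members. Its probe (mm9 chromosome 5, 30668896 to 30668956) read 2.88, 2.90, 2.68 and 3.30 in knockout lungs 1 to 4, against 2.31, 2.08, 2.36 and 2.11 in wild-type lungs 1 to 4. The lowest knockout lung, number 3, was above the highest wild-type lung, also number 3, and the difference was 0.73 ± 0.14 or 1.65-fold, from means of 2.94 ± 0.26 in knockout and 2.21 ± 0.14 in wild-type lungs (SE of the difference, SD of the means, n = 4 per group; limma, adjusted p = 0.0626). Ccdc39 read -1.63, -1.26, -2.08 and -1.06 in knockout lungs 1 to 4, against -2.19, -2.52, -2.38 and -2.52 in wild-type lungs 1 to 4. Its groups were apart, by little between knockout lung 3 and wild-type lung 1, with a difference of 0.89 ± 0.21 (SE; limma, adjusted p = 0.0783). Ccdc40, the other ruler protein, read 0.35, 0.63, 0.12 and 1.13 in knockout lungs 1 to 4, against 0.17, -0.19, -0.11 and -0.28 in wild-type lungs 1 to 4. Only knockout lung 3 and wild-type lung 1 broke the separation, and the difference was 0.66 ± 0.21 (SE; limma, adjusted p = 0.126). A dimmer second Ccdc40 probe, above background on 2 knockout and 4 wild-type arrays, differed by 0.10 ± 0.25 (SE). Ccdc153, a smaller subunit, read 3.73, 3.85, 3.77 and 4.55 in knockout lungs 1 to 4, against 4.10, 3.09, 3.43 and 3.24 in wild-type lungs 1 to 4. Wild-type lung 1 was second to knockout lung 4, and the difference was 0.51 ± 0.26 (SE; limma, adjusted p = 0.274). Iqcg, a calmodulin-binding subunit, was nearly level in all 8 lungs, with a difference of 0.04 ± 0.083 (SE).

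The radial spokes, which carry signals between the central pair and the dyneins, had a higher mean in knockout for 7 of 7 members tested, but with a median of 0.32 and 2 at an unadjusted p under 0.05. Rsph9, a spoke head subunit, read 2.36, 2.40, 2.10 and 2.92 in knockout lungs 1 to 4, against 2.03, 1.68, 1.84 and 1.75 in wild-type lungs 1 to 4. The groups were apart, and the difference was 0.62 ± 0.17 (SE, n = 4 per group; limma, adjusted p = 0.0994). Rsph3b, a spoke stalk subunit, read 3.21, 3.36, 3.27 and 3.50 in knockout lungs 1 to 4, against 3.14, 2.94, 3.05 and 3.05 in wild-type lungs 1 to 4. Its groups were apart as well with a small spread, and the difference was 0.29 ± 0.087 (SE; limma, adjusted p = 0.112). Rsph3a, a near-identical copy whose signal the probes may not fully separate, differed by 0.11 ± 0.099 (SE) with overlapping groups. Rsph1, another head subunit, read 0.94, 1.12, 0.76 and 1.84 in knockout lungs 1 to 4, against 1.0, 0.55, 0.77 and 0.43 in wild-type lungs 1 to 4. Knockout lung 4 stood above the other lungs, which overlapped (0.48 ± 0.24, SE; limma, adjusted p = 0.267). Lrrc23 differed by 0.34 ± 0.19, Rsph4a by 0.32 ± 0.19 and Ropn1l by 0.04 ± 0.16 (SE), while second probes gave 0.53 ± 0.17 for Rsph4a and -0.17 ± 0.18 for Ropn1l. The other Rsph3a probes gave -0.05 ± 0.11 and 0.11 ± 0.0918 (SE).

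The central pair, the shaft at the core of the axoneme, had a higher mean in knockout for 6 of 7 members (median 0.45), with 1 at an unadjusted p under 0.05. That 1 made up 14.3% of the sub-group, near the 10.1% of all genes tested. The median was 0.27 without knockout lung 4. Spef1, which bundles and stabilises the central microtubules, read 2.61, 2.41, 2.48 and 2.86 in knockout lungs 1 to 4, against 2.31, 1.89, 2.20 and 2.17 in wild-type lungs 1 to 4. The groups were apart with knockout lung 2 nearest to wild-type lung 1, and the difference was 0.45 ± 0.13 (SE, n = 4 per group; limma, adjusted p = 0.105). The probe named Spag6, a projection protein, carries the RefSeq symbol Spag6l and read -0.30, 0.09, -0.34 and 0.61 in knockout lungs 1 to 4, against -0.23, -0.68, -0.23 and -0.67 in wild-type lungs 1 to 4. Its groups overlapped (0.47 ± 0.23, SE; limma, adjusted p = 0.258), and the probes for the other copy, which RefSeq calls Spag6, were above background on 0 of 8 arrays. Stk36, a kinase-family protein needed to build the central pair, read -0.98, -0.74, -1.23 and -0.54 in knockout lungs 1 to 4, against -0.95, -1.36, -1.08 and -1.48 in wild-type lungs 1 to 4. Wild-type lungs 1 and 3 lay within the knockout range (0.35 ± 0.18, SE; limma, adjusted p = 0.273), and a second probe for the gene differed by 0.60 ± 0.15 (SE).

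Hydin, a giant protein of a central pair projection, split the knockout group. It read -1.35, -0.14, -1.36 and -0.14 in knockout lungs 1 to 4, against -1.11, -1.61, -1.34 and -1.55 in wild-type lungs 1 to 4. Knockout lungs 2 and 4 were about equal and high, and knockout lungs 1 and 3 lay at the level of the wild-type lungs, so the difference of 0.66 ± 0.33 (SE; limma, adjusted p = 0.261) rests on 2 lungs. Those 2 knockout lungs were also the ones highest in cardiac muscle markers. A second, dimmer Hydin probe, above background on 3 knockout and 2 wild-type arrays, differed by 0.52 ± 0.33 (SE). A probe named Gm9558, to which RefSeq gives the symbol Hydin, did not show this split. It read -4.61, -4.35, -1.74 and -3.84 in knockout lungs 1 to 4, with knockout lung 3 the highest. That probe was above background on 4 knockout and 2 wild-type arrays and differed by 1.31 ± 0.59 (SE; limma, adjusted p = 0.226). Spag16 differed by 0.47 ± 0.21 and Spef2, a scaffold of another projection, by -0.02 ± 0.13 (SE). Spag17 was above background on 2 knockout and 4 wild-type arrays and differed by 0.13 ± 0.31 (SE).

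Tektins and other proteins inside or along the doublet microtubules had a higher mean in knockout for 7 of 7 members, with a median of 0.56 and 6 at an unadjusted p under 0.05. Mns1, a protein of the doublet lumen, read 0.95, 1.0, 0.66 and 1.38 in knockout lungs 1 to 4, against 0.42, 0.36, 0.66 and 0.32 in wild-type lungs 1 to 4. Knockout lung 3 and wild-type lung 3 met at almost the same value, and otherwise the groups were well apart (0.56 ± 0.16, SE; limma, adjusted p = 0.0992). Cfap126, known as Flattop in mouse, read 3.18, 3.42, 3.07 and 3.92 in knockout lungs 1 to 4, against 3.01, 2.64, 2.74 and 2.52 in wild-type lungs 1 to 4. Its lowest knockout lung was just above its highest wild-type lung, and the difference was 0.67 ± 0.19 (SE; limma, adjusted p = 0.105). A second, dimmer Cfap126 probe, above background on 4 arrays of each group, differed by 0.45 ± 0.22 (SE). Tekt1, a filament-forming tektin, read 2.72, 2.73, 2.50 and 3.26 in knockout lungs 1 to 4, against 2.64, 2.01, 2.11 and 2.06 in wild-type lungs 1 to 4. Wild-type lung 1 stood apart from its group and within the knockout range, and the difference was 0.60 ± 0.20 (SE; limma, adjusted p = 0.13), while a second Tekt1 probe gave 0.54 ± 0.19 (SE). Tekt4 differed by 0.65 ± 0.24, Enkur by 0.56 ± 0.19 and Tekt2 by 0.43 ± 0.15 (SE), all with overlapping groups. Tppp3, a tubulin-binding protein, read 3.61, 3.80, 3.45 and 3.95 in knockout lungs 1 to 4, against 4.00, 3.59, 3.80 and 3.35 in wild-type lungs 1 to 4. The 2 groups covered the same range, and its difference of 0.02 ± 0.16 (SE; limma, adjusted p = 0.957) turned to -0.04 when the arrays were centred on their medians.

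**Figure D3:**
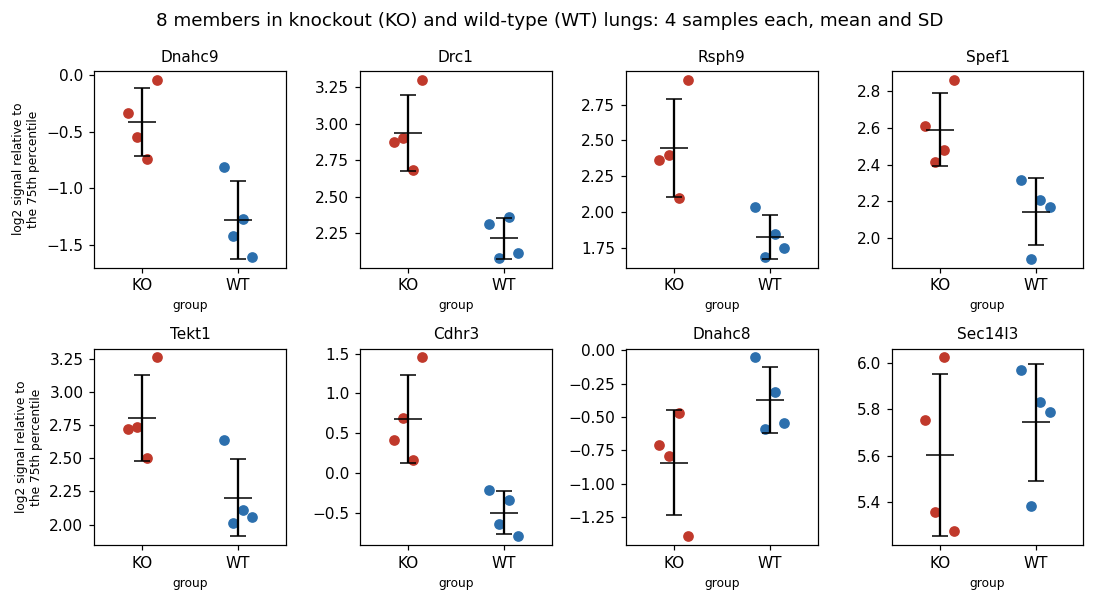
Log2 signal relative to the array's 75th percentile of 8 members in each knockout (left, red) and wild-type (right, blue) lung, with the mean and SD of the 4 lungs. The groups are apart in Dnahc9, Drc1, Rsph9, Spef1 and Cdhr3, wild-type lung 1 lies within the knockout range in Tekt1, and Dnahc8 and Sec14l3 have lower means in knockout.

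The last 4 members are genes of ciliated cells rather than parts of the axoneme core, and they held both the widest differences and an exception. Cdhr3, a cadherin known in human airways as the receptor of rhinovirus C, read 0.42, 0.69, 0.16 and 1.45 in knockout lungs 1 to 4, against -0.21, -0.65, -0.34 and -0.80 in wild-type lungs 1 to 4. Every knockout lung was above every wild-type lung, and the difference of 1.18 ± 0.27 or 2.26-fold, from means of 0.68 ± 0.56 in knockout and -0.50 ± 0.27 in wild-type lungs (SD), was the largest among the 48 members tested (SE, n = 4 per group; limma, adjusted p = 0.0763). Tmem212, a membrane protein, read 1.91, 2.39, 1.68 and 2.96 in knockout lungs 1 to 4, against 1.38, 0.96, 1.22 and 0.96 in wild-type lungs 1 to 4. Its groups were apart with a difference of 1.11 ± 0.27 (SE; limma, adjusted p = 0.0789). In both genes knockout lung 4 was far the highest, and without the 3 lungs high in cardiac markers the differences were 0.74 for Cdhr3 and 0.61 for Tmem212. Ak7, an adenylate kinase of the axoneme, differed by 0.57 ± 0.25 (SE) with overlapping groups. Sec14l3, a lipid-transfer family protein abundant in ciliated cells, read 5.75, 5.36, 6.02 and 5.27 in knockout lungs 1 to 4, against 5.97, 5.38, 5.83 and 5.79 in wild-type lungs 1 to 4. The groups overlapped, knockout lung 4 was the lowest of all, and the difference was -0.14 ± 0.20 (SE; limma, adjusted p = 0.687). A second, dimmer Sec14l3 probe differed by -0.51 ± 0.26 (SE).

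Brighter and dimmer members were counted apart. Among the 24 brighter members 23 had a higher mean in knockout (median 0.58), and among the 24 dimmer ones 21 did (median 0.45), which is a description of these probes.

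**Figure D4:**
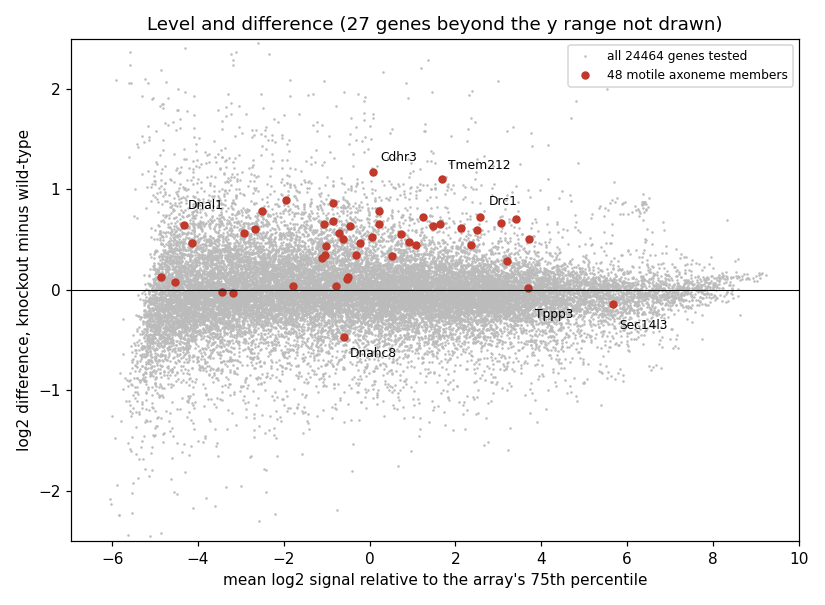
Log2 difference, knockout minus wild-type, against mean log2 signal relative to the array's 75th percentile, for all 24464 genes tested (grey) and the 48 members (red), with 27 genes beyond the range of the y axis not drawn. The members lie mostly above 0 over the whole range of signal, while the median of all genes is -0.03.

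Other axoneme and assembly genes, outside the members, were listed from knowledge of the axoneme but with earlier results of these data known. They had a higher mean in knockout in 44 of 47 tested cases (median 0.44). Of the 47, 21 were higher and 1 lower at an unadjusted p under 0.05, and 0 passed the adjusted threshold. Lrriq1, a leucine-rich repeat protein, read -4.19, -3.47, -3.89 and -2.87 in knockout lungs 1 to 4, against -5.04, -5.19, -4.90 and -5.74 in wild-type lungs 1 to 4. Its groups were far apart, though it was above background on 3 of 4 wild-type arrays (1.61 ± 0.30, SE; limma, adjusted p = 0.0618). Kif6, a kinesin, differed by 0.59 ± 0.12 (SE; limma, adjusted p = 0.0634). Tekt5, a tektin known from sperm, read -4.40, -4.04, -3.97 and -4.79 in knockout lungs 1 to 4, against -2.70, -3.04, -2.68 and -3.24 in wild-type lungs 1 to 4. It was the one gene of that list with every knockout lung below every wild-type lung (-1.38 ± 0.21, SE; limma, adjusted p = 0.057).

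The upstream programme of multiciliated cells had a higher mean in knockout for 10 of 17 genes tested (median 0.15), 6 higher and 1 lower at an unadjusted p under 0.05. Foxj1, the master transcription factor of motile cilia, read 2.16, 2.20, 2.42 and 2.73 in knockout lungs 1 to 4, against 1.77, 1.78, 1.91 and 1.70 in wild-type lungs 1 to 4. Its groups were apart, with knockout lung 1 the lowest of its group and a difference of 0.59 ± 0.13 (SE; limma, adjusted p = 0.0736). Myb, which acts early in multiciliated cells, differed by 0.68 ± 0.14, and Ccdc67, the deuterosome scaffold now named Deup1, by 0.71 ± 0.15 (SE; limma, adjusted p = 0.0646 and 0.0703). The RFX factors Rfx2 and Rfx3 differed by 0.17 ± 0.24 and -0.37 ± 0.25 (SE), Rfx3 being dim and above background on 3 knockout and 4 wild-type arrays. Other genes of the list hardly differed, among them Mcidas (0.15 ± 0.29), Ccno (0.01 ± 0.20) and Trp73 (-0.04 ± 0.12, each with SE). Intraflagellar transport, the cargo system that builds cilia in nearly all cells, was higher in mean in knockout for 22 of 27 genes tested, with a median of 0.18 and 7 higher and 1 lower at an unadjusted p under 0.05. Its smallest p-values were those of Ift88 (0.46 ± 0.12), Ift122 (0.28 ± 0.08) and Ift57 (0.30 ± 0.091, each with SE), of which 0 passed the adjusted threshold (limma).

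Ciliated cell markers outside the members had a higher mean in knockout in 8 of 8 cases, with a median of 0.54 and 4 at an unadjusted p under 0.05. Their summed signal ranged from 25.8 to 44.8 in knockout lungs and from 19.0 to 28.4 in wild-type lungs, so the groups overlapped through wild-type lung 1. Besides Foxj1, Ccdc113 differed by 0.62 ± 0.20 and Odf3b by 0.60 ± 0.24 (SE), and Spag8, above background on 2 knockout and 4 wild-type arrays, by 0.03 ± 0.35. The list is not a further set of genes, since 7 of its 8 belong to the other axoneme and assembly genes above and Foxj1 to the upstream programme.

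Markers of neighbouring cell types were read in the same lungs. Club and secretory cell markers of the airways had a higher mean in knockout for 16 of 17 genes tested (median 0.69). At an unadjusted p under 0.05, 4 were higher and 1 was lower. Their summed signal ranged from 1736 to 2859 in knockout lungs and from 1336 to 1730 in wild-type lungs. By mean log2 level the groups overlapped, at 4.68, 5.78, 3.40 and 6.02 in knockout lungs 1 to 4. Wild-type lungs 1 to 4 stood at 3.32, 4.44, 5.06 and 2.37. Some genes of the list varied widely, and Reg3g ran from -0.98 to 7.49 in knockout lungs and from -5.90 to 5.71 in wild-type lungs. Scgb1a1, a secretoglobin of club cells, differed by 0.16 ± 0.072 (SE; limma, adjusted p = 0.213). Cbr2, a carbonyl reductase of club cells, differed by 0.69 ± 0.12, Cyp2f2, a club cell cytochrome, by 0.70 ± 0.20 and Krt7 by -0.43 ± 0.16 (SE; limma, adjusted p = 0.0572, 0.101 and 0.162). Basal cell markers were higher in mean in 4 of 5 cases (median 0.51, 0 at an unadjusted p under 0.05), their summed signal ranging from 4.99 to 10.5 in knockout lungs and from 4.79 to 6.26 in wild-type lungs. Krt14, Krt5 and Ngfr differed by -0.20 ± 0.16, 1.34 ± 1.35 and 0.51 ± 0.58 (SE).

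Alveolar type 1 markers had a lower mean in knockout in 12 of 12 cases (median -0.39, 5 at an unadjusted p under 0.05), with summed signals of 314 to 541 in knockout lungs and 428 to 567 in wild-type lungs. Igfbp2, Akap5 and Aqp5 differed by -1.28 ± 0.30, -0.88 ± 0.25 and -0.44 ± 0.15 (SE). Alveolar type 2 markers had a lower mean in 9 of 12 cases (median -0.25, 5 lower at an unadjusted p under 0.05). Their summed signals were 1043 to 1442 in knockout lungs and 1158 to 1392 in wild-type lungs. Cxcl15, Lpcat1 and Abca3 differed by -0.79 ± 0.18, -0.39 ± 0.11 and -0.51 ± 0.20 (SE). The 3 with a higher mean were the surfactant protein genes Sftpd (0.13 ± 0.12) and Sftpc (0.09 ± 0.10), and Lamp3 (0.02 ± 0.14, each with SE). None of the 12 genes of either list passed the adjusted threshold (limma). Of the sperm markers, 5 were tested, with a median of 0.04, and Prm2 differed by 0.09 ± 0.22 (SE). The part of the airway share of each lung sample in the members' values was not tested.

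**Figure D5:**
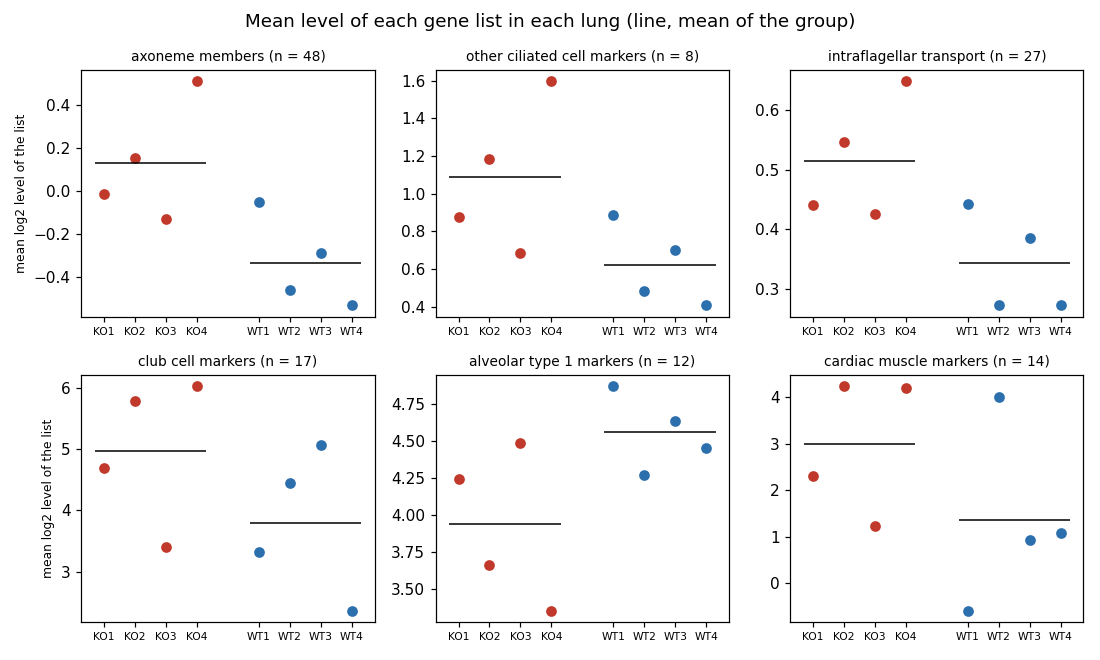
Mean log2 level of 6 gene lists in each knockout lung (red, left) and wild-type lung (blue, right), with the mean of each group as a line. Axoneme members and other ciliated cell markers are highest in knockout lung 4, alveolar type 1 markers are lowest there, and cardiac muscle markers are high in knockout lungs 2 and 4 and wild-type lung 2.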

How the data were processed

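Total RNA of 8 whole lungs was read on single-colour Agilent arrays with Agilent Feature Extraction 10.7.1.1, per the submitters' processing notes. Per the file headers, the deposited scanner files hold spot intensity, with a processed signal from which background was subtracted, and probe coordinates are on mm9. The authors' deposited value table is on a log2 scale, with a common median of 5.63 in all 8 columns and r of at least 0.999 with log2 processed signal. The sources used here do not say how it was normalized.

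Control and outlier spots were left out, the spots of each probe were averaged, and each array's 75th percentile was subtracted from its log2 processed signal. A probe was kept when well above background on at least 3 of 4 arrays of a group, and the brightest kept probe stood for its gene. The test was limma 3.58.1 (R 4.3.3, two-sided) with Benjamini-Hochberg adjustment over 24464 genes. It was checked on simulated data. The submitters count 4 mice per group, and the number of arrays limits the precision. Replicates correlated at 0.979 to 0.991. Same-numbered knockout and wild-type samples deviated from their group means with r of 0.13, 0.47, 0.01 and -0.29, so the numbers were not taken as pairs.

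The members and the other gene lists were chosen with earlier results of these data known. Given in full were up to 3 members with the highest mean signal in each sub-group, the 12 members with the smallest p, up to 3 genes with the smallest p in each other list, and Ggps1. Dnahc8, Hydin and single values of other genes were added after their values were seen. RefSeq accessions named 26574 probes, symbols 2601 and synonyms 492, and 25993 kept the file's name. Promoters are from RefSeq. Armc4, Lrrc6, Lrrc50, Rsph1, Rsph4a and Tppp3 had no entry under the symbols searched. Dnahc3 was searched under that name and not as Dnah3, so whether it has an entry is not known. Alternatives were normexp with an offset of 50, quantile normalization, median centring, other background filters, the deposited value table, the mean of a gene's probes, an intensity trend, array weights, the replicate number as a block, each sample left out and, added after seeing the data, 3 lungs left out. A gene of the ciliated cell marker list is not named here.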

Additional observations from a re-analysis of the deposited data

Results flagged for a closer look

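In 5 of 96 groups of 4 lungs over the members, 1 lung lay far from its group by Dixon's test, in which the gap to the nearest lung, divided by the range of the group, exceeded the critical value of that test. Chance gives about 1 in 20 such groups. The ratio was 0.935 for Dnahc6, 0.855 for Lrrc50 and 0.853 for Ccdc153, each with knockout lung 4 above the other knockout lungs. It was 0.867 for Spag17 and 0.839 for Tekt1, each with wild-type lung 1 above the other wild-type lungs.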

How the results depend on the processing

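The members' median difference of 0.52 lay between 0.44 and 0.54 under the other ways of processing and between 0.34 and 0.64 with a sample left out. It was 0.24 without the 3 lungs high in cardiac markers, with 8 members higher at an unadjusted p under 0.05. Shares of all genes at that unadjusted p were counted in the main setting only. Members that rose numbered 1 (Drc1) under normexp, an intensity trend or array weights, where 228, 159 and 160 of 24464 genes rose. With no filter on dim probes 8 of 50 members rose, beside 2721 of 36153 genes. Under the other settings 0 members rose. Dnahc8 was lower at an unadjusted p under 0.05, as the 1 such member, under normexp, quantile normalization, median centring, the deposited value table, the intensity trend, array weights, the replicate block and without knockout 3 (0 to 1 with a sample left out). Genes that rose numbered 8 and genes that fell 7, against 228 and 285 under normexp, 13 and 23 under median centring, 2721 and 785 with no filter, 59 and 68 with a filter on all 8 arrays, 4 and 5 with the mean of a gene's probes, 159 and 258 with the intensity trend, 160 and 190 with array weights, 12 and 34 with the replicate block, 1 to 11 and 0 to 12 with a sample left out, and 0 and 0 without the 3 lungs. The replicate block, which by construction cannot change a mean difference, gave 22 members higher at an unadjusted p under 0.05. Lrrc50 ranged from -0.26 to 0.29 and Tppp3 from -0.0934 to 0.122 with a sample left out. Tppp3 was -0.0042 under normexp and -0.0371 under median centring. Without the 3 lungs 10 of 48 tested members changed sign: Dnaic1 was -0.10, Zmynd10 -0.0166, Tppp3 -0.185, Sec14l3 0.025, Hydin -0.0209, Spag17 -0.40, Ropn1l -0.11, Rsph4a -0.033, Iqcg -0.0052 and Rsph3a -0.0002. Of 569 values of 30 named members over 19 settings, 546 kept direction and side of the threshold, 11 passed it and 12 changed sign. The causes were not tested. A slide block was not run, because there was 1 slide.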
